A study of Mus musculus with 8 samples.

Results

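Transcripts of the Shu complex, of the BCDX2 and CX3 complexes and of the breast cancer genes Brca1 and Brca2 were measured in polysomal (P) and non-polysomal (NP) RNA of maturing mouse oocytes. The members were a list of 9 gene symbols looked up in a table of FPKM values (fragments per gene, divided by gene length in kilobases and by library size) of 25574 genes. Zswim7, Rad51c, Xrcc2, Xrcc3, Brca1 and Brca2 were found under these symbols, which gave 6 of the 9 listed genes. Swsap1, Rad51b and Rad51d are present under the older symbols 2310047B19Rik, Rad51l1 and Rad51l3, to which the RefSeq gene table links them, and these 3 genes are described beside the others. All 9 genes passed the filter on low values (a mean of more than 0.1 FPKM in NP or in P) and were among the 14292 genes tested.

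The series asked which transcripts of the oocyte are bound to polysomes when the nuclear envelope breaks down (NEBD), at the resumption of meiosis. Ovaries came from CD1 females aged 8 weeks that had received 5 IU of pregnant mare serum gonadotropin 46 h before. Oocytes were isolated in IBMX, a meiotic inhibitor that prevents NEBD, and then cultured for 180 min without it. They were then held for 10 min in 0.1 mg/mL cycloheximide, an elongation inhibitor that keeps ribosomes on their mRNA. Lysates of 200 oocytes were separated on a sucrose gradient into 10 fractions, of which fractions 2 to 5 were pooled as NP and fractions 6 to 10 as P, with 4 libraries of each. All oocytes were treated alike and no mutant or other treatment group was part of the comparison. By design P and NP differed in their place in the gradient, and every library held RNA pooled from many oocytes.

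Homologous recombination repairs DNA double-strand breaks by copying an intact duplex. BRCA2 acts as a mediator at the resected single strand, while BRCA1 acts earlier in resection and with BRCA2 through PALB2. The products of Rad51b, Rad51c, Rad51d and Xrcc2 form the BCDX2 complex and those of Rad51c and Xrcc3 the CX3 complex, both of which assist strand exchange. ZSWIM7 (also called SWS1) and SWSAP1 form the mammalian Shu complex, which acts beside them in recombination, and mice that lack either gene are sterile. In the female germ line recombination takes place before birth, and oocytes at NEBD have passed that stage.

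The scaling of each library was read from its commonest product of FPKM and annotated gene length, taken as 1 read. The recovered reads of every library summed to more than the number so found, in NP replicate 1 to 5384706 against 3192245. The number that the library had been scaled to was 1299377 to 7594637 in NP and 2677946 to 4699328 in P, so that 1 read in a gene of 1 kb was worth 0.132 to 0.770 FPKM in NP and 0.213 to 0.373 FPKM in P. Between 11703 and 13753 genes had a value above 0 in NP libraries and between 9139 and 11339 in P libraries. All 10 oocyte markers examined, among them Gdf9 and Zp3, exceeded 0.1 FPKM in every library, with a summed level of 5954 to 12904 FPKM in NP and 8635 to 36261 FPKM in P. Of 14 granulosa and cumulus cell markers, 5 (Foxl2, Inhba, Has2, Ptx3 and Amhr2) were at 0 in all 8 libraries. Another 5 had a mean above 1 FPKM in NP or in P, and 2 markers exceeded 0.1 FPKM in every library. Cyp19a1 was the highest in both datasets. Nr5a2 averaged 24.1 FPKM in NP and 13.3 FPKM in P, and Cyp11a1 averaged 12.5 FPKM in NP and 4.50 FPKM in P. The summed level of the 14 markers was 15.3 to 141 FPKM in NP and 20.3 to 64.0 FPKM in P. Of 10 stromal, endothelial and blood markers in the table, 7 were at 0 in all libraries. Only Pecam1 had a mean above 1 FPKM, at 30.7 FPKM in NP and 27.5 FPKM in P. The sum of these markers was 11.0 to 63.5 FPKM in NP and 6.36 to 77.7 FPKM in P. The part of these other cells in the results was not tested.

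Zswim7, the zinc finger SWIM-domain subunit of the Shu complex (chr11:62267224-62281375, minus strand, GRCm38), had the highest mean of the 9 genes in P and, on the log2(FPKM + 1) scale, the largest difference between the datasets, but its P libraries did not move together. Rad51b exceeded it by ratio of means (21.5 against 13.7), with a pseudocount of 0.1 (2.62 against 1.95) and with voom on recovered reads (2.60 against 1.80). It also did so without NP replicate 1 (2.23 against 2.15), NP replicate 3 (1.91 against 1.36) or P replicate 2 (2.55 against 1.05). The NP libraries of Zswim7 held 15.0, 12.6, 2.06 and 22.5 FPKM in replicates 1 to 4. Its P libraries held 13.1, 300.8, 1.23 and 397.9 FPKM. P replicates 2 and 4 lay above every NP library, P replicate 1 lay within the NP range and P replicate 3 lay below it. The datasets therefore overlapped. Replicates 2 and 4 supplied 98.0% of the summed P value and replicate 4 alone 55.8%.

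The mean level of Zswim7 was 13.0 ± 8.44 FPKM (SD, n = 4) in NP and 178 ± 202 FPKM (SD, n = 4) in P, a ratio of means of 13.7. Of all genes tested, 644 (4.51%) had a ratio of mean FPKM above 10. On the log2(FPKM + 1) scale, which understates the change of low genes, the difference between P and NP was 1.98 with a standard error of 1.39 and a 95% interval of −1.01 to 4.96, and limma gave an adjusted p of 0.637 over all genes. Without P replicate 4 the difference was 0.92, and without P replicate 3 it was 3.41. The study singled out Zswim7 from these same libraries, so its difference is a description and not independent evidence. FPKM is a share of the RNA in a pool, so a lower value from fewer contributing oocytes and from less RNA per oocyte cannot be told apart.

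The values of Zswim7 rested on few reads in several libraries. With an annotated length of 732 bases, the recovered reads were 35, 12, 11 and 125 in NP replicates 1 to 4 and 45, 706, 4 and 780 in P replicates 1 to 4. The highest and the lowest P library differed 324-fold, between 780 and 4 reads. The SD of log2(FPKM + 1) over the P libraries was 3.61, a spread exceeded by few genes (percentile 99.5 of 11374 genes with a mean FPKM above 1), while in NP it was 1.29 (percentile 76.8). The reads were made from amplified cDNA without molecular identifiers, so they are not independent molecules. The part of sampling in this spread was not tested.

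P replicates 2 and 4 were also the P libraries with the smallest scaling numbers, at 3205965 and 2677946. Their summed oocyte marker levels differed, at 9347 FPKM in replicate 2 and 36261 FPKM in replicate 4, and their granulosa marker sums were 64.0 and 20.3 FPKM. Per 1000 FPKM of summed oocyte markers, Zswim7 stood at 1.16, 1.06, 0.347 and 1.98 FPKM in NP replicates 1 to 4 and at 0.467, 32.2, 0.142 and 11.0 FPKM in P replicates 1 to 4. The order of the libraries with the 3 highest values was P replicate 2, P replicate 4 and NP replicate 4 on this scale. The part of library depth in the pattern was not tested.

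**Figure D1:**
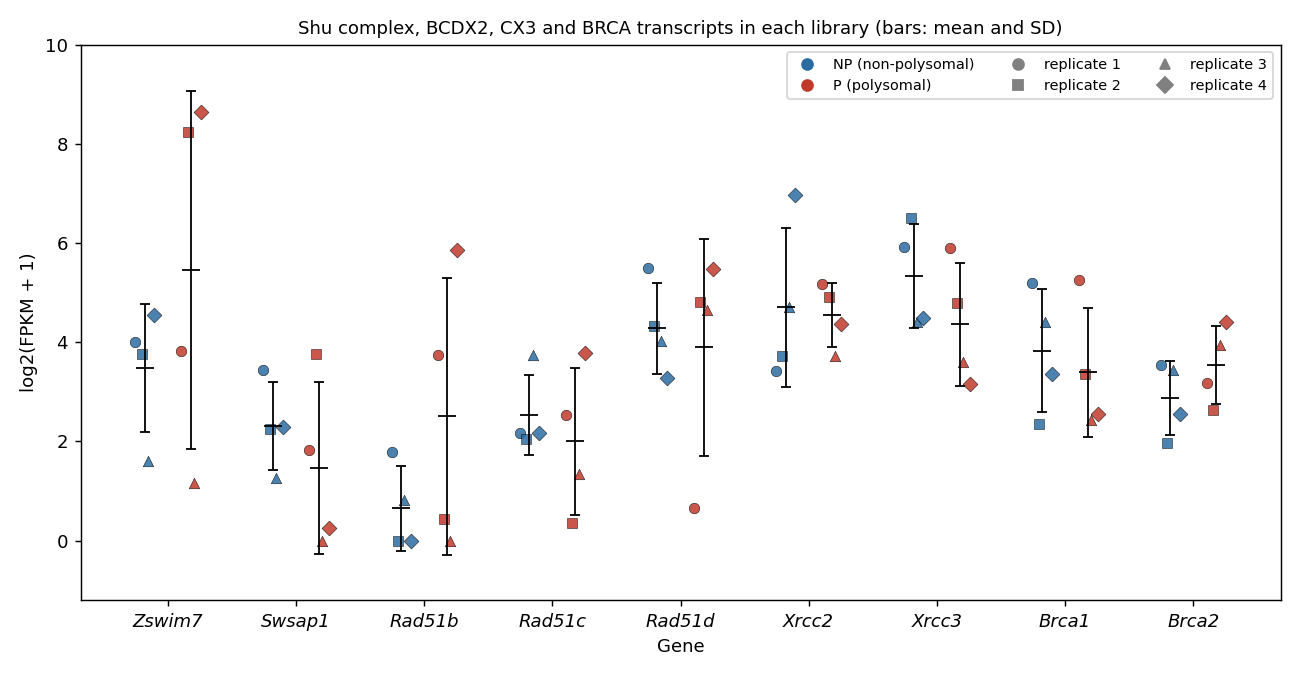
Level of each of the 9 genes as log2(FPKM + 1) in the 4 NP (blue) and 4 P (red) libraries, with the marker shape giving the replicate number and black bars the mean and SD of 4 libraries. Zswim7 has P replicates 2 and 4 above all other points and P replicate 3 lowest, and in every gene the blue and red points overlap.

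The rank of Zswim7 among the tested genes of its own library does not depend on the scaling between libraries. In NP the share of tested genes with a lower FPKM ranged from 35.3% to 76.4%, with a median of 67.8%. In P it ranged from 47.8% to 98.5%, with a median of 83.6%. P replicates 2 and 4 thus outranked every NP library, also without any scaling between libraries. Genes without reads count as lower, and every P library had fewer detected genes than any NP library. A detected gene therefore ranks higher in P at a like level. Zswim7 ranked at 47.8% with 1.23 FPKM in P replicate 3, but at 35.3% with 2.06 FPKM in NP replicate 3. Swsap1 with 1 read in P replicate 4 still ranked at 40.5%. The range and median of the ranks in P are thus not directly comparable with those in NP.

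The 5 genes with a pattern most like that of Zswim7 were found by Pearson's r of log2(FPKM + 1) over the 8 libraries among 11373 other genes with a mean FPKM above 1, and are named with no test. They were 1500011B03Rik (r = 0.914), Pebp1 (r = 0.913), which encodes an inhibitor of RAF kinase, Ube2b (r = 0.908), a ubiquitin-conjugating enzyme of post-replication repair, Npc2 (r = 0.895), a lysosomal cholesterol carrier, and Grcc10 (r = 0.893). Ube2b held 9.58, 7.60, 12.6 and 15.1 FPKM in NP and 6.71, 74.8, 3.92 and 61.1 FPKM in P. Like Zswim7, all 5 genes were higher in P replicates 2 and 4 than in P replicates 1 and 3. They were picked by their correlation with Zswim7, so this likeness follows from the choice. None of the other 8 members ranked near them, since the closest was Rad51b at r = 0.497, followed by Swsap1 at 0.289 and Rad51d at 0.274, and the lowest was Brca1 at −0.21.

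Swsap1, whose product is the partner of ZSWIM7 in the Shu complex (chr9:21955753-21958270, plus strand), was low in both datasets. It held 9.84, 3.75, 1.41 and 3.92 FPKM in NP replicates 1 to 4 and 2.54, 12.7, 0 and 0.202 FPKM in P replicates 1 to 4. P replicate 2 was the highest of all 8 libraries, and P replicates 3 and 4 the lowest, with 0 and 1 recovered reads. The means were 4.73 ± 3.59 FPKM in NP and 3.85 ± 5.99 FPKM in P (SD, n = 4 each). The log2 difference was −0.85 (standard error 0.99, 95% interval −2.97 to 1.27, limma adjusted p = 0.730), so Swsap1 lay on the other side of 0 from Zswim7 with neither passing the threshold. It was −1.96 with a pseudocount of 0.1, −1.95 with voom, −0.22 with libraries scaled to one median, −0.10 with quantile normalization, −1.62 without P replicate 2, −0.36 without P replicate 3, −0.45 without P replicate 4 and −0.47 without NP replicate 1.

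The difference between the 2 Shu complex transcripts was also taken inside each library. On the log2(FPKM + 1) scale Zswim7 exceeded Swsap1 in all 8 libraries, by 0.56, 1.52, 0.34 and 2.25 in NP replicates 1 to 4. In P replicates 1 to 4 it exceeded Swsap1 by 1.99, 4.46, 1.16 and 8.37. The mean was 1.17 ± 0.89 in NP and 4.00 ± 3.24 in P (SD, n = 4 each), which put P higher by 2.83, less than the SD of the P libraries. P replicates 1 and 3 lay within the NP range and P replicates 2 and 4 above it. Without P replicate 4 the difference was 1.37. Swsap1 had 0 and 1 recovered reads in P replicates 3 and 4, so the values there depend on the pseudocount. With a pseudocount of 0.1, P was higher by 3.91.

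**Figure D2:**
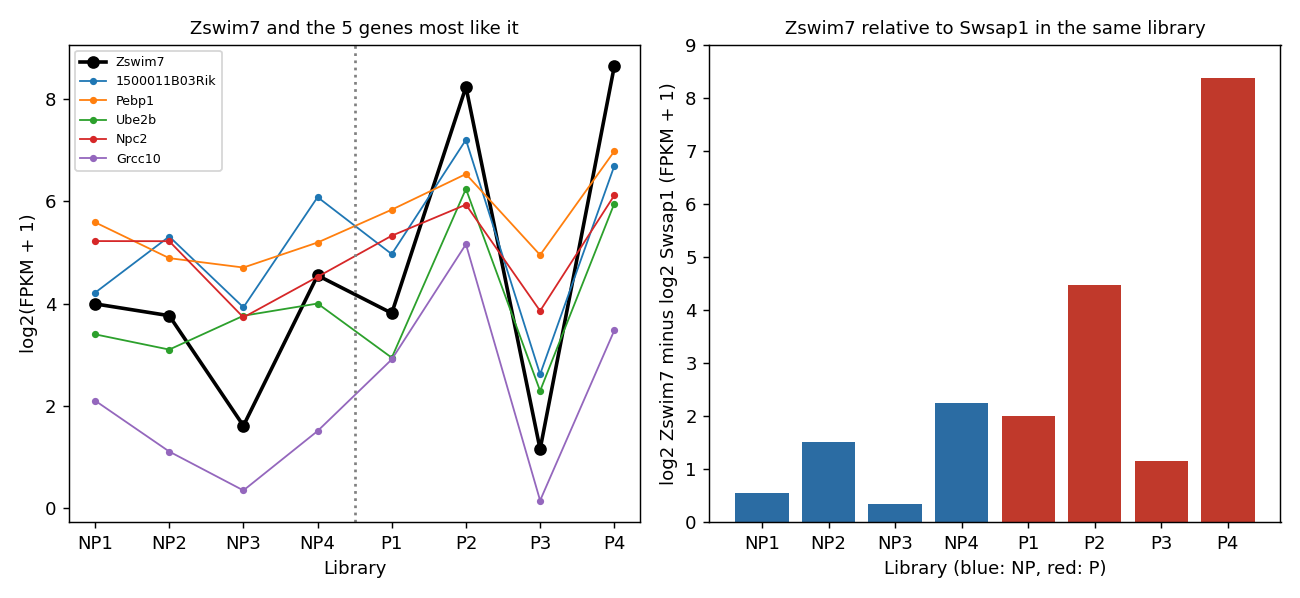
Left, log2(FPKM + 1) of Zswim7 (black) and of the 5 genes with the highest Pearson's r with it, in the 8 libraries, with NP and P separated by the dotted line. Right, log2(FPKM + 1) of Zswim7 minus that of Swsap1 in each library, from 0.34 in NP replicate 3 to 8.37 in P replicate 4.

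Among the BCDX2 and CX3 genes, Rad51b was the member nearest to Zswim7 in size of difference, and its P libraries also spread widely. Rad51b, a subunit of BCDX2 (chr12:79297351-79508656, plus strand), held 2.47, 0, 0.773 and 0 FPKM in NP replicates 1 to 4. In P replicates 1 to 4 it held 12.5, 0.351, 0 and 56.9 FPKM. P replicates 1 and 4 were above all NP libraries, P replicate 2 was within their range and P replicate 3 was at 0, as were 2 NP libraries. The means were 0.810 ± 1.16 FPKM in NP and 17.4 ± 27.0 FPKM in P (SD, n = 4 each). The log2 difference was 1.86 (standard error 1.18, 95% interval −0.69 to 4.40, limma adjusted p = 0.598). The values rested on 14 and 10 recovered reads in the NP libraries above 0 and on 104, 2, 0 and 271 in P, and the SD of log2(FPKM + 1) over P was 2.79 (percentile 97.3). Without P replicate 4 the log2 difference was 0.74, and the range without 1 library was 0.74 to 2.69. Rad51b was high in P replicate 1 and low in P replicate 2, where Zswim7 was the other way round.

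Rad51c, the subunit shared by BCDX2 and CX3 (chr11:87376645-87404954, minus strand), held 3.50, 3.16, 12.5 and 3.51 FPKM in NP and 4.76, 0.285, 1.54 and 12.7 FPKM in P. NP replicate 3 stood apart from the other NP libraries, and P replicate 4 was level with it. The means were 5.66 ± 4.54 FPKM in NP and 4.82 ± 5.58 FPKM in P (SD, n = 4 each), and the log2 difference was −0.54 (standard error 0.96, limma adjusted p = 0.812).

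Rad51d, the BCDX2 subunit that binds XRCC2 (chr11:82876434-82890614, minus strand), held 44.1, 19.1, 15.4 and 8.72 FPKM in NP and 0.573, 27.1, 24.0 and 43.5 FPKM in P. P replicate 1 was far below the rest, and the other P libraries lay inside the NP range. The means, 21.8 ± 15.5 FPKM in NP and 23.8 ± 17.7 FPKM in P (SD, n = 4 each), were close, with a log2 difference of −0.39 (standard error 1.0, limma adjusted p = 0.877). The ratio of means was 1.09, on the other side of no change from the log2 difference.

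Xrcc2, the remaining subunit of BCDX2 (chr5:25689812-25705825, minus strand), held 9.73, 12.2, 25.3 and 124 FPKM in NP and 35.3, 29.2, 12.2 and 19.8 FPKM in P. NP replicate 4 alone set the higher NP mean, since the other NP libraries reached at most 25.3 FPKM. The means were 42.9 ± 54.6 FPKM in NP and 24.1 ± 10.2 FPKM in P (SD, n = 4 each), with a log2 difference of −0.16 (standard error 0.81, limma adjusted p = 0.938). Without NP replicate 4 the log2 difference was 0.59.

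Xrcc3, the other subunit of CX3 (chr12:111803192-111813873, minus strand), had the largest difference toward NP among the 9 genes on the log2(FPKM + 1) scale of the deposited values, and one of 0.30 toward P with libraries scaled to one median. Swsap1 lay further toward NP with a pseudocount of 0.1 (−1.96 against −1.01), with voom (−1.95 against −0.63) and without P replicate 2 (−1.62 against −1.12). With voom, Rad51c (−1.01) and Rad51d (−0.76) did so too. Without NP replicate 2, Brca1 (−0.93), Swsap1 (−0.87) and Rad51c (−0.70) lay further toward NP than Xrcc3 (−0.58). Without P replicate 4, Rad51c (−1.13) and Rad51d (−0.91) lay further than Xrcc3 (−0.57). Xrcc3 held 59.5, 90.1, 20.3 and 21.5 FPKM in NP and 58.7, 26.9, 11.1 and 7.88 FPKM in P. P replicates 3 and 4 lay below every NP library and P replicates 1 and 2 within the NP range. The means were 47.8 ± 33.5 FPKM in NP and 26.1 ± 23.2 FPKM in P (SD, n = 4 each), and the log2 difference was −0.97 (standard error 0.78, limma adjusted p = 0.654). Xrcc3 was the only member whose coordinates overlapped another gene of the table. It shares 4653 bases with Klc1 on the opposite strand, and since the library kit did not mark strand their reads cannot be told apart there. Klc1 averaged 11.6 FPKM in NP and 2.67 FPKM in P.

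Brca1, whose product joins resection and repair choice (chr11:101488764-101551955, minus strand), held 35.8, 4.09, 20.3 and 9.29 FPKM in NP and 37.1, 9.24, 4.38 and 4.85 FPKM in P. Replicate 1 was the highest library in both datasets and the rest of the values overlapped. The means were 17.4 ± 14.0 FPKM in NP and 13.9 ± 15.6 FPKM in P (SD, n = 4 each), with a log2 difference of −0.44 (standard error 0.89, limma adjusted p = 0.837).

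Brca2, a mediator of recombination (chr5:150522630-150569746, plus strand), was the most even of the 9 genes in P on the log2 scale apart from Xrcc2. It held 10.7, 2.94, 9.79 and 4.87 FPKM in NP and 8.04, 5.24, 14.4 and 20.2 FPKM in P, on 41 to 764 recovered reads. P replicates 3 and 4 lay above every NP library and P replicates 1 and 2 within the NP range. The means were 7.08 ± 3.77 FPKM in NP and 11.98 ± 6.71 FPKM in P (SD, n = 4 each), a ratio of 1.69, and the log2 difference was 0.66 (standard error 0.79, limma adjusted p = 0.734).

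Across the 9 genes, 0 passed the limma threshold of an adjusted p below 0.1, in a fit that called 3 of the 14292 genes tested (0.021%), all of them higher in NP. In this fit of all 8 libraries no member reached an unadjusted limma p of 0.05, which 9.95% of all genes did. No member had separate datasets, against 0.357% of all genes that were higher in P without overlap and 5.92% that were higher in NP without overlap. Zswim7, Rad51b and Brca2, 3 of the 9, had a log2 difference above 0, against 28.6% of all genes, and these became 8 of 9 with libraries scaled to one median and 7 of 9 with quantile normalization, where the median of all genes itself moved from −0.39 to 0.21 and −0.02. The scaling to one median used all tested genes, those at 0 included, and P libraries had fewer genes above 0 than NP libraries. Among genes above 0, the median was 6.14 to 8.13 FPKM in NP libraries and 5.89 to 7.45 FPKM in P libraries. On the values as deposited the median over the 9 genes was −0.39, as it was over all genes. In the same fit the 95% interval of every member included 0. The intervals reached from −2.64 to 0.70 for Xrcc3, from −0.69 to 4.40 for Rad51b and from −1.03 to 2.36 for Brca2, and those of the other members reached beyond 1 on both sides.

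**Figure D3:**
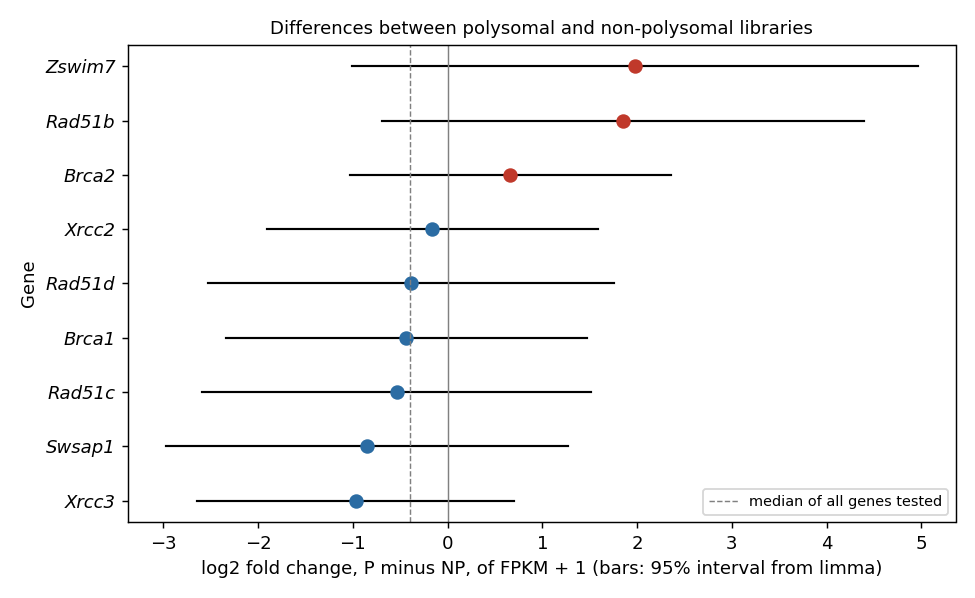
Difference of log2(FPKM + 1), P minus NP, of the 9 genes with the 95% interval from limma, in order of size, with a solid line at 0 and a dashed line at the median of all genes tested (−0.39). Every interval crosses 0, from Zswim7 at 1.98 down to Xrcc3 at −0.97.

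The order of the levels was taken from FPKM, which is per length. In NP the order of the means ran from Xrcc3, Xrcc2 and Rad51d over Brca1, Zswim7, Brca2 and Rad51c to Swsap1 and Rad51b. In P it ran from Zswim7 over Xrcc3, Xrcc2, Rad51d, Rad51b, Brca1, Brca2 and Rad51c to Swsap1. In both orders every gene overlapped its neighbour within their SDs, including Zswim7 and Xrcc3 in P. By medians, Xrcc3 went from the first place in NP (40.5 FPKM) to the fourth in P (19.0 FPKM), Brca2 passed Brca1, Rad51c passed Swsap1 and Zswim7 was again first in P (157 FPKM). Rad51b was last in NP by mean and by median, with no NP library above 2.47 FPKM.

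The ends of the transcripts were read because cytoplasmic polyadenylation elements (CPE) near the poly(A) signal are known to govern the recruitment of stored mRNAs to polysomes in maturing oocytes. The last 100 bases of the annotated 3′ UTR were searched on the transcript strand for the CPE motifs TTTTAT and TTTTAAT and for the poly(A) signals AATAAA and ATTAAA. The longer CPE motif can share its last bases with the first of these signals, and in Brca2 the motifs lay apart. Of 12000 tested genes with such a window, 19.4% held a CPE motif, 81.2% a poly(A) signal and 16.3% both. Among the 9 genes, Brca2 alone held a CPE motif, 32 bases before the transcript end, and 7 held a poly(A) signal, all but Swsap1 and Rad51d. The Rad51b window lies at the end of an annotated transcript that reaches beyond the gene end given in the table. Windows of 30 bases in GRCm38 are shown for Zswim7, the member with the highest mean in P, and for the member with the CPE motif, with the motif in capitals. The Zswim7 site is at chr11:62267236-62267265 on the minus strand, and the Brca2 sites are at chr5:150569697-150569726 and chr5:150569709-150569738 on the plus strand.
Zswim7 poly(A) signal: attgttgactcaAATAAAgcctgagccatg
Brca2 CPE motif: ctacaactatcaTTTTATatacaaaataaa
Brca2 poly(A) signal: ttttatatacaaAATAAAcatagctttgct
Zswim7 thus had a poly(A) signal 24 bases before its end and none of the searched CPE letters in a 3′ UTR of 230 bases, of which only the last 100 were read. A match is a description of letters and not of a bound site.

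The other genes of homologous recombination and its neighbouring pathways were examined in 8 lists, with the 9 members left out. The table held 118 of these genes, of which 109 were tested, and 0 passed the limma threshold in either direction. At an unadjusted limma p below 0.05, 10 genes were higher in NP and 0 in P, together 9.17% of the 109 against 9.95% of all genes. There were 8 genes (7.34%) whose NP libraries all lay above all P libraries, against 5.92% of all genes, and 0 with the opposite order. The log2 difference was above 0 for 32 genes and below 0 for 77, with a median of −0.37, but with libraries scaled to one median it was above 0 for 74 genes and below 0 for 35, and with quantile normalization for 63 and 46. At an unadjusted limma p below 0.05, scaling to one median gave 8 genes with more in P and 5 with more in NP. The directions of the lists below are therefore those of the deposited values.

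Of the direct cofactors of strand exchange, the rule named 3 genes. Rad54l, a DNA translocase, was higher in NP without overlap, with 17.5 ± 11.7 FPKM in NP and 5.01 ± 2.10 FPKM in P (SD, n = 4 each) and a log2 difference of −1.46. The genes of the SWI5-SFR1 accessory complex overlapped between the datasets. Swi5 averaged 18.5 FPKM in NP and 30.3 FPKM in P, the latter with 91.9 FPKM in P replicate 4 alone, and Sfr1 averaged 30.3 FPKM in NP and 14.8 FPKM in P. Rad52, chosen after its values were seen, had an unadjusted limma p of 0.034 with 22.6 FPKM in NP and 7.30 FPKM in P, although P replicate 4 (16.6 FPKM) lay within the NP range.

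The BRCA1 and BRCA2 partners had 1 gene above 0 and 9 below, with a median log2 difference of −0.25 that became 0.88 with libraries scaled to one median, and no gene without overlap. The most abundant were 5430437P03Rik, the older symbol of Babam1 in the BRCA1-A complex, with 78.0 FPKM in NP and 83.9 FPKM in P, and Shfm1, the small BRCA2-binding protein DSS1, with 74.6 FPKM in NP and 32.6 FPKM in P. NP replicate 4 held 208 FPKM of Shfm1, against at most 51.2 FPKM in any other NP library.

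End resection and single-strand binding held 2 of the 8 genes without overlap. They were 14.3% of its 14 tested genes, against 5.92% of all genes, and this difference was not tested. The median log2 difference of the list, −0.52, became 0.79 with libraries scaled to one median. Rbbp8, which encodes the resection factor CtIP, held 14.8, 5.97, 11.0 and 15.5 FPKM in NP and 1.43, 0, 0.291 and 0 FPKM in P, with a log2 difference of −3.19 (limma adjusted p = 0.376). Obfc2b, the older symbol of the single-strand binding protein gene Nabp2, averaged 10.4 ± 2.57 FPKM in NP and 1.44 ± 2.07 FPKM in P (SD, n = 4 each). The RPA subunit genes Rpa2 and Rpa1 were the most abundant of this list. Rpa2 averaged 61.6 FPKM in NP and 103 FPKM in P, and Rpa1 averaged 58.4 FPKM in NP and 44.2 FPKM in P. Neither passed the threshold.

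Negative regulators and helicases had the only pathway list median above 0, at 0.07, with 6 genes above 0 and 4 below, and the highest of the 8 medians, 1.35, with libraries scaled to one median. Fbxo18, which encodes the FBH1 helicase, was the most even of the named pathway genes in NP, at 120.2, 109.8, 120.5 and 131 FPKM, and held 174, 170.1, 78.0 and 109 FPKM in P. Its datasets overlapped, with a log2 difference of 0.07. Helq, a helicase that acts with BCDX2, averaged 84.4 ± 87.0 FPKM in NP and 37.5 ± 26.1 FPKM in P (SD, n = 4 each).

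Junction processing held 3 genes without overlap, all higher in NP. They were 17.6% of its 17 tested genes, against 5.92% of all genes, and this difference was not tested. The median log2 difference of the list was −0.60, or −0.075 with libraries scaled to one median. Mus81, the catalytic subunit of a structure-specific nuclease, was abundant, with 433, 581, 186 and 323 FPKM in NP and 126, 97.7, 127 and 92.3 FPKM in P. Its log2 difference was −1.67 (limma adjusted p = 0.405). Top3a, the topoisomerase of the BLM dissolvasome, averaged 31.3 ± 19.5 FPKM in NP and 1.85 ± 0.975 FPKM in P, and Ercc1, the partner of the XPF nuclease, 20.8 ± 12.9 and 3.33 ± 3.07 FPKM (SD, n = 4 each), with limma adjusted p-values of 0.376 and 0.416. Msh4, a meiotic MutS homologue, averaged 34.2 FPKM in NP and 10.4 FPKM in P with overlap.

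Meiotic break formation and synapsis genes had 3 above 0 and 14 below, with a median log2 difference of −0.65, or −0.00037 with libraries scaled to one median. Syce2, a central element protein of the synaptonemal complex, was the most abundant of the list, at 576 ± 214 FPKM in NP and 288 ± 112 FPKM in P (SD, n = 4 each), and overlapped. Syce1, of the same structure, reached 165 FPKM in P replicate 4 and 0 in the other P libraries. Hormad2, an axis protein, was low and without overlap, at 2.06 ± 1.03 FPKM in NP and 0.117 ± 0.234 FPKM in P (SD, n = 4 each). Mei4, chosen after its values were seen, was listed at 0 in all P libraries and in NP replicate 1.

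End joining genes had a median log2 difference of −0.46 that became 0.69 with libraries scaled to one median. Prkdc, the catalytic subunit of the DNA-dependent kinase, held 4.45, 2.43, 4.98 and 10.9 FPKM in NP and at most 0.123 FPKM in P, with a log2 difference of −2.55 (limma adjusted p = 0.376). Xrcc1, the scaffold of single-strand break repair, averaged 480 ± 305 FPKM in NP and 431 ± 460 FPKM in P (SD, n = 4 each), with the highest and the lowest library both in P. Poll, a gap-filling polymerase, averaged 159 FPKM in NP and 62.4 FPKM in P and overlapped.

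Fanconi anaemia genes had 7 above 0 and 9 below, with a median log2 difference of −0.11 that became 0.86 with libraries scaled to one median, and none without overlap. Stra13, the older symbol of the histone-fold gene Cenpx, averaged 78.7 FPKM in NP and 130 FPKM in P, and Ube2t, the ubiquitin-conjugating enzyme of the pathway, 54.8 FPKM in NP and 40.4 FPKM in P. C230052I12Rik, the older symbol of Faap24 and chosen after its values were seen, averaged 14.7 FPKM in NP and 0.927 FPKM in P, and P replicate 2 (3.59 FPKM) lay within the NP range.

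**Figure D4:**
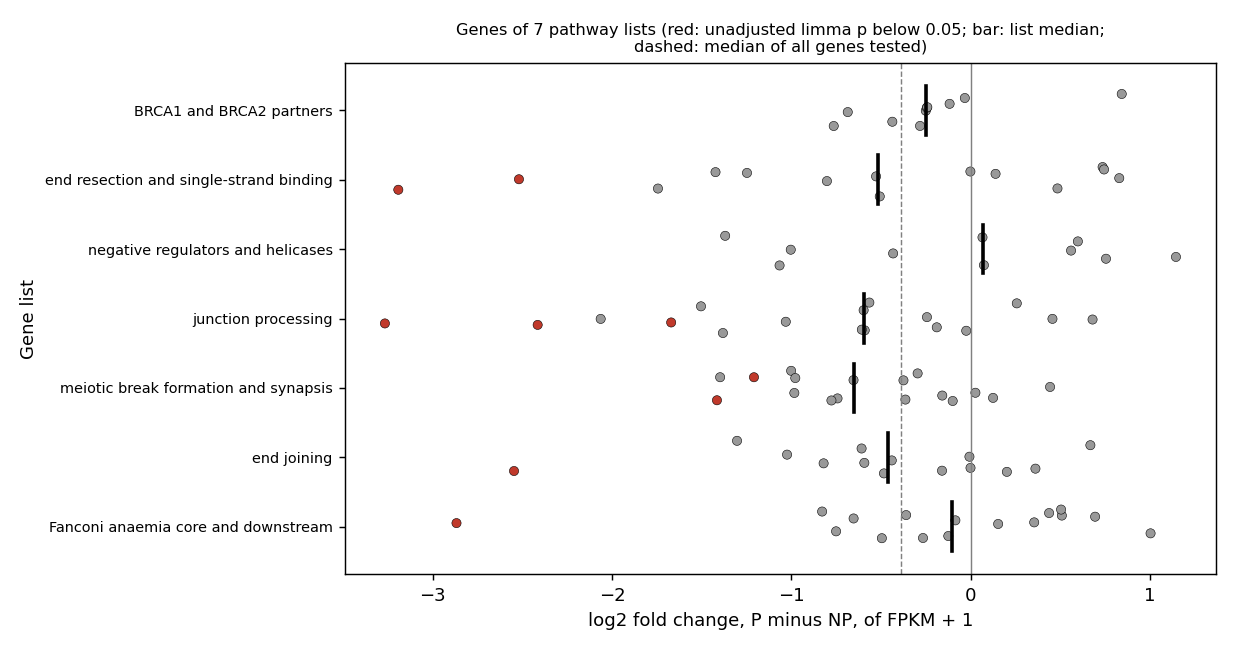
Difference of log2(FPKM + 1), P minus NP, for the 98 tested genes of 7 pathway lists, 1 point a gene, with red points at an unadjusted limma p below 0.05, black bars at list medians and a dashed line at the median of all genes tested (−0.39). All 9 red points lie below 0, and 1 of the 7 list medians lies above 0.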

How the data were processed

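Polysome profiles of scarce samples (SSP-profiling) gave 4 NP and 4 P libraries, grouped and numbered by their titles, and the methods describe the profiles as independent. The RNA was depleted of rRNA, primed with oligo(dT) and random primers, amplified as whole transcriptome cDNA and made into libraries that do not mark strand. After trimming (Trim Galore 0.4.1) and alignment to GRCm38 (HISAT2 2.0.5), the authors computed the deposited FPKM values in Seqmonk 1.40.0, with an annotation version that the sources used here do not name. A table of dataset means and ratios and a table of DESeq2 results hold the authors' own comparison and were not used.

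P and NP were compared with limma 3.58.1 in R 4.3.3 (lmFit, eBayes with trend, 2-sided) on log2(FPKM + 1), keeping genes whose mean exceeded 0.1 FPKM in NP or in P, and p-values were adjusted after Benjamini-Hochberg over all 14292 genes, with a threshold of 0.1. The script was tested on simulated data. Whole reads were recovered from FPKM steps (within 0.01 read) for 13588 of 15585 genes above 0, with an annotated length for 6973 and a searched one for 6615, and a step may be 1 read or 1 fragment. For Swsap1, Rad51b, Rad51d, Brca1 and Brca2 the length was searched. Named genes are the members, the 2 most abundant genes and every gene without overlap of each pathway list, and the 5 genes most like Zswim7. The members and lists were chosen with earlier results of these data known. Alternatives were another pseudocount, filter, scaling and trend, a replicate block, voom on recovered reads and leaving out each library. Ends of transcripts came from GENCODE vM21 on GRCm38. Python 3.11.15, pandas 2.3.3 and matplotlib 3.10.9 were used. The summary of the list of strand exchange cofactors is not reported here.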

Additional observations from a re-analysis of the deposited data

Results flagged for a closer look

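In 20 groups of 4 libraries, 10 values each in NP and P (the 9 genes and the within-library difference), a library was flagged where its gap to the nearest other, divided by the whole range, exceeded Dixon's 95% critical value. This held for 3 groups. Chance flags about 1 in 20 groups if values follow a normal distribution. The gene values were FPKM without a log, so that rate need not hold and the 3 are not read as an excess. Rad51c stood at 12.5 FPKM in NP replicate 3, with the other NP libraries at 3.16 to 3.51 FPKM. Xrcc2 stood at 124 FPKM in NP replicate 4, with the others at 9.73 to 25.3 FPKM. Brca1 stood at 37.1 FPKM in P replicate 1, with the others at 4.38 to 9.24 FPKM. The Zswim7 values in P were not flagged, since its high libraries were a pair.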

How the results depend on the processing

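The number of genes called over the whole table was 3 and became 5 with a pseudocount of 0.1, 0 without the filter, 5 with a mean FPKM above 1, 0 with libraries scaled to one median, 0 with quantile normalization, 1 with the replicate block, 20 without the trend and 124 with voom on recovered reads, and 0 to 5 without 1 library. It was 0 without any single NP library and without P replicate 3. No member was called under any of the 16 alternatives. Without P replicate 3 the difference was 3.41 (standard error 1.09) for Zswim7 and 2.69 (standard error 1.19) for Rad51b. Of the pathway genes, Rbbp8 was called without the trend (1 gene) and Prkdc and Rbbp8 with voom (2 genes), both higher in NP. The log2 difference of Zswim7 stayed above 0 in all 16, from 0.92 without P replicate 4 to 3.41 without P replicate 3, with limma adjusted p-values from 0.408 to 0.778, and Rad51b and Brca2 also stayed above 0. Scaling moved the median of all genes from −0.39 to 0.21 (one median) and −0.02 (quantile). The one median was taken over all tested genes with those at 0 included, of which P libraries had more. With libraries scaled to one median, Rad51c (0.46), Rad51d (0.89), Xrcc2 (1.12), Xrcc3 (0.30) and Brca1 (0.76) turned above 0, as did Rad51c (0.22), Rad51d (0.071), Xrcc2 (0.29) and Brca1 (0.22) with quantile normalization. Relative to the median of all genes, Zswim7, Rad51b and Brca2 lay above it in all 17 settings and the other 6 on both sides. Without 1 library, the range was −1.13 to 0.010 for Rad51c (above 0 without P replicate 2), −0.91 to 0.69 for Rad51d (0.016 without NP replicate 1 and 0.69 without P replicate 1), −0.59 to 0.59 for Xrcc2 (0.59 without NP replicate 4 and 0.12 without P replicate 3) and −1.05 to 0.022 for Brca1 (above 0 without NP replicate 1). The within-library difference of Zswim7 and Swsap1 was 3.91 with a pseudocount of 0.1 and 1.37 to 3.77 without 1 library. Same-numbered NP and P libraries deviated together at r = 0.05 to 0.25 over 11374 genes and other numbers at −0.14 to 0.14, with 7 of 8 libraries closest to their own number. NP and P were pooled from fractions of the same gradients, but no source states that equal numbers mark the same gradient. As not every pair exceeded 0.1, the replicate block was kept as an alternative, so the main fit leaves out any such pairing. The block called no member. With it the Zswim7 difference of 1.98 had a standard error of 0.90 in place of 1.39 (limma adjusted p = 0.408). Zswim7, Swsap1 and Rad51b each rest on under 15 reads in several libraries. The causes were not tested.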
